A study of Arabidopsis thaliana with 2 samples.

Results

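The trehalose-phosphate synthase family of Arabidopsis thaliana was examined in leaf transcriptomes of wild type and of Atclb1-1, through the 8 genes TPS1 and TPS5 to TPS11. They were chosen by locus identifier from a table of 33557 loci, and all 8 have a row. Their measured levels were not used in the choice, but earlier results of these data were known. Each genotype had 1 library. The wild type library came from leaves of ecotype Columbia plants, and the other from leaves of a homozygous line in the same ecotype with a T-DNA insertion in AtCLB, a gene for a calcium-dependent lipid-binding protein, labelled as a loss of function and called the Atclb1-1 library here after its label. Plants of both genotypes were 2 weeks old and grew under a 16-h photoperiod at 23 °C. The number of plants per library, the time of harvest and the position of the insertion were not stated in the sources used here. The question was how leaf transcript levels change with AtCLB disrupted. With 1 library per genotype no difference has a replicate check, so each value below describes these libraries only and no test between genotypes was made.

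Trehalose-phosphate synthases join UDP-glucose and glucose 6-phosphate into trehalose 6-phosphate, a sugar phosphate whose level in plants follows that of sucrose and which restrains the energy-sensing kinase SnRK1. A phosphatase then removes the phosphate to give trehalose, and trehalase splits trehalose into glucose. In Arabidopsis the class I gene TPS1 encodes the main active synthase, needed for embryo development and for flowering. The class II genes TPS5 to TPS11 encode proteins that carry a synthase-like and a phosphatase-like domain and are not known to make trehalose 6-phosphate in the plant. Their transcripts are known to respond to sugar status: those of TPS8 to TPS11 rise when carbon is short, whereas that of TPS5 rises with sugar supply.

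The coding stretch at the first phosphatase box is shown because it separates the members by sequence. Codons for aspartate, any residue, aspartate, glycine and threonine were searched in frame, and the 15 bases of the box are in capitals. They were read from the TAIR10.1 RefSeq genome in the 5′ to 3′ direction of the gene.
TPS1, chr1:29553921-29554061, minus strand: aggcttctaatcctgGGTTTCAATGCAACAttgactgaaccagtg
TPS5, chr4:9878828-9878872, plus strand: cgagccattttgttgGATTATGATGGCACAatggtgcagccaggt
TPS6, chr1:25499299-25499343, plus strand: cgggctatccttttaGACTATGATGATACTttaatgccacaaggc
TPS7, chr1:1957168-1957212, plus strand: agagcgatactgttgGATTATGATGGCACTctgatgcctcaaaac
TPS8, chr1:26472276-26472320, minus strand: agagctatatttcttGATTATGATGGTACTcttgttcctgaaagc
TPS9, chr1:8434468-8434512, plus strand: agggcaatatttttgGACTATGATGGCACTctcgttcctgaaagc
TPS10, chr1:22178256-22178300, minus strand: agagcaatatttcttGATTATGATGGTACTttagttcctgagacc
TPS11, chr2:8110792-8110836, plus strand: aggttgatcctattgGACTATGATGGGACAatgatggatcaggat
The box was found 1 time each in TPS5, TPS7, TPS8, TPS9, TPS10 and TPS11. In TPS6 the aligned codons encode 4 of the 5 residues found in TPS8. In TPS1 the aligned codons encode 1 of these 5 residues, and the stretch spans an intron, so that its 45 coding bases cover 141 bases of the genome. The TPS1 stretch was placed by alignment with TPS8 and is the least certain of the set.

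Across whole coding sequences, TPS8 and TPS9 were the closest pair, with 81.1% identical bases and a longest shared run of 32 bases. TPS10 had 72.4% identity with TPS8 and 72.2% with TPS9. TPS5 and TPS6 had 71.2%, and the 21 pairs of class II genes ranged from 64.6% to 81.1%. TPS1 stood apart, at 59.9% to 61.9% with the 7 class II genes. Gene structure followed the same division, with 19 exons in the longest annotated TPS1 transcript and 3 to 5 exons in those of the class II genes. Of the 8 genes 6 lie on chromosome 1, TPS11 lies on chromosome 2 and TPS5 on chromosome 4.

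**Figure D1:**
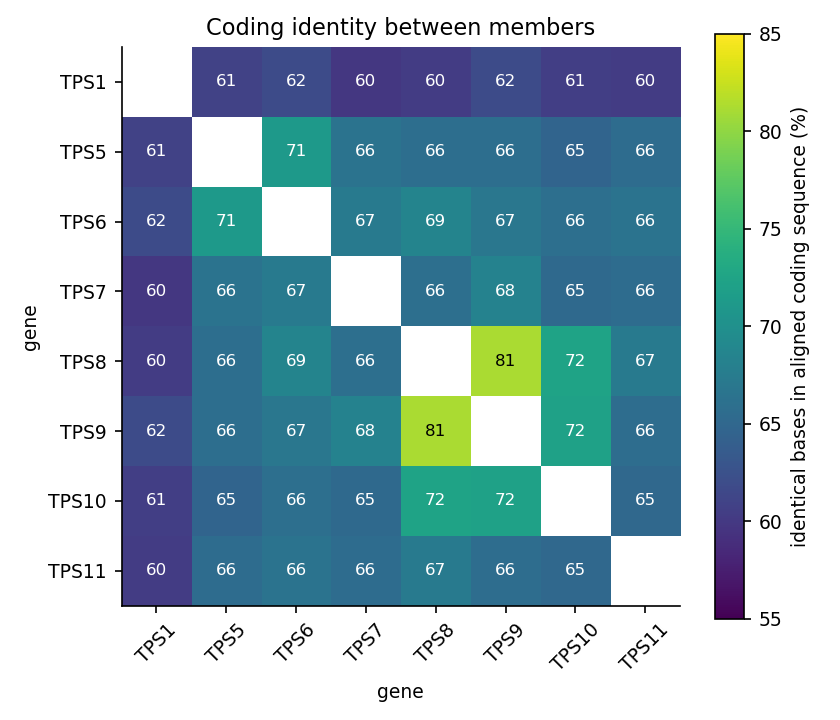
Percent of identical bases between the coding sequences of each pair of members, over the aligned bases, by colour and number (RefSeq TAIR10.1). TPS8 and TPS9 share 81.1% of bases and TPS1 shares at most 61.9% with any other member.

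The libraries themselves were checked first. AtCLB (AT3G61050) was at 39.2 FPKM in the wild type library and 13.5 FPKM in the Atclb1-1 library, so reads of the locus remained, and the genotype is given as labelled. FPKM are fragment numbers scaled to transcript length and library size, so levels can be compared between genes. Steps among 2434 low values put the Atclb1-1 library at 1.21 times the depth of wild type. All 5 leaf markers lay between 889 and 19812 FPKM in both libraries. Of them 3, RBCS1A, CAB3 and CA1, were past 2-fold lower in the Atclb1-1 library. RCA and LHCB2.1 went the other way, under 2-fold, with log2 differences of 0.73 and 0.14. By the rule used below, 17.2% of loci that reached 1 FPKM in either library were at least 2-fold higher and 10.8% lower. Of 4 root markers 3 were listed at 0 in both libraries, and PYK10 was listed at 0 in the wild type library and stood at 1.31 FPKM in the other, past 2-fold higher on the scale used below. No seed marker reached 1 FPKM. Of 2 flower markers that reached 1 FPKM 1 was past 2-fold higher, and of 3 xylem markers 1 was past 2-fold lower. Clock genes of opposite phase stood far apart. All 4 dawn genes were past 2-fold higher in the Atclb1-1 library and 6 of 7 evening genes at least 2-fold lower. Log2 differences ran from 3.57 to 4.28 over the dawn genes and from -5.85 to -0.84 over all 7 evening genes. The part of this clock gene difference in the synthase values was not tested. The 8 reference genes had a median log2 difference of 0.06 and ranged from -0.40 to 0.64.

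Of the 8 synthase genes, TPS8 was at least 2-fold higher in the Atclb1-1 library and none was at least 2-fold lower. All 8 lay at 1 FPKM or more in both libraries. Differences are given as log2 of the mutant value over the wild type value, after adding 1 FPKM to each, which understates differences of low genes. By the same rule 17.2% of the 18171 loci that reached 1 FPKM in either library, called measured loci here, were higher and 10.8% lower, so 1 of 8 is near the background. TPS7, TPS10 and TPS9 came next, each with a plain ratio between 1.86 and 1.90. TPS6, TPS1 and TPS11 lay within 1.24-fold of wild type, and TPS5 was 1.56-fold lower. The median log2 difference of the 8 genes was 0.51 and that of all measured loci 0.21. Of the 8 genes 5 had a value above 0, as did 60.4% of all measured loci.

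**Figure D2:**
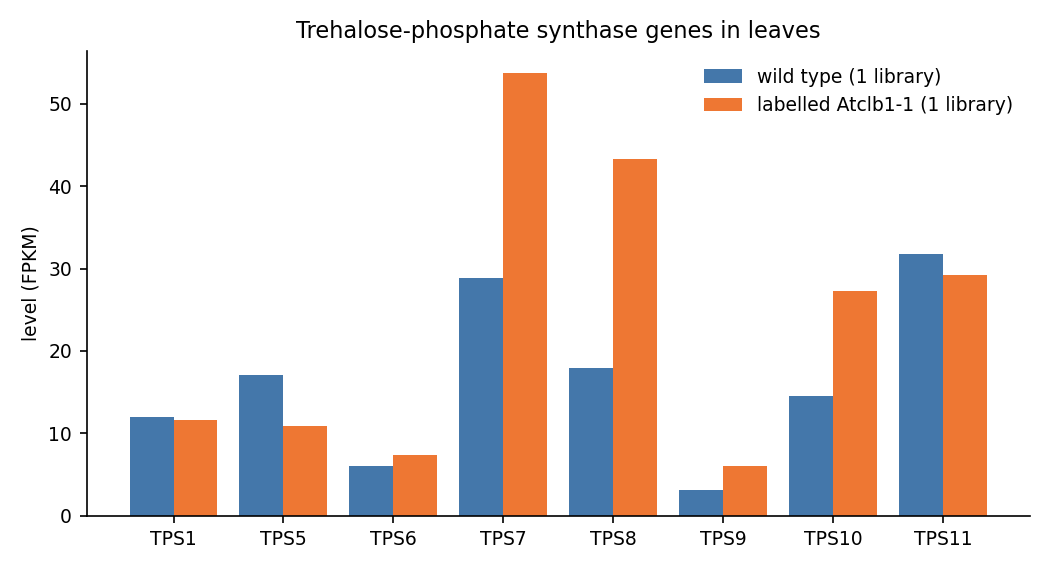
Level of each synthase gene in FPKM in the wild type library and in the Atclb1-1 library, 1 bar per library and no error bars because there are no replicates. TPS7 and TPS8 reach 53.8 and 43.3 FPKM in the Atclb1-1 library against 28.9 and 17.9 FPKM in wild type, while TPS5 is lower at 10.9 against 17.0 FPKM.

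TPS1 (AT1G78580; TAIR10.1 chr1:29552340-29560912, minus strand), the class I synthase, was at 12.0 FPKM in the wild type library and 11.6 FPKM in the Atclb1-1 library, a log2 difference of -0.05. Its 2 values were thus nearly equal. With a trend in the length and GC content of transcripts removed, the TPS1 difference was -0.56. TPS1 overlaps RHM1 (AT1G78570) on the opposite strand, which stood at 55.5 and 111 FPKM, and the sources used here do not say whether strand was used in quantification. The other class I genes were at or near 0, since TPS2 and TPS3 were listed at 0 in both libraries and TPS4 at 0.0261 FPKM in the wild type library and 0 in the Atclb1-1 library.

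TPS5 (AT4G17770; chr4:9876172-9880386, plus strand), the class II gene whose transcript is known to rise with sugar, was the member with the lowest difference. It was at 17.0 FPKM in the wild type library and 10.9 FPKM in the Atclb1-1 library, a log2 difference of -0.60, and 18.8% of measured loci had a difference at least as low. Once the trend with the length and GC content of transcripts had been subtracted, 13.7% of loci were at least 2-fold lower. TPS5 was among them, with a value of -1.03. Its closest relative TPS6 (AT1G68020; chr1:25496928-25500584, plus strand), which is known for a part in cell shape, was at 6.01 FPKM in the wild type library and 7.43 FPKM in the Atclb1-1 library. That log2 difference of 0.27 was close to the median of all measured loci. Overlapping genes on the opposite strand were low beside both, with AT4G17780 at 0.286 and 0.284 FPKM and AT1G68030 at 1.73 and 0.772 FPKM.

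TPS7 (AT1G06410; chr1:1954674-1958866, plus strand) was the most abundant member in the Atclb1-1 library. It stood at 28.9 FPKM in the wild type library and 53.8 FPKM in the Atclb1-1 library, a ratio of 1.86 and a log2 difference of 0.87. This lay under the 2-fold threshold, and 20.6% of measured loci had a difference at least as high.

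TPS8 (AT1G70290; chr1:26470795-26474833, minus strand) had the largest difference of the family. It was at 17.9 FPKM in the wild type library and 43.3 FPKM in the Atclb1-1 library, a ratio of 2.41 and a log2 difference of 1.23. Even so, 12.9% of measured loci had a difference at least as high. With the trend of transcript length and GC content removed, the value was 0.76 and no longer past the 2-fold threshold. Among 79 loci of the pathway, clock and reference lists, the nearest to TPS8 in its pair of log2 levels over the 2 libraries was GPT2, a sugar-induced glucose 6-phosphate translocator gene of the plastid envelope, at a distance of 0.44. The SnRK1 subunit genes SNF4 and KIN11 followed at 0.58 and 0.63. This distance takes in level as well as difference, and the ratios were 3.78 for GPT2, 1.36 for SNF4 and 1.29 for KIN11.

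TPS9 (AT1G23870; chr1:8432179-8435656, plus strand), the closest relative of TPS8, was the least abundant member in both libraries. It was at 3.18 FPKM in the wild type library and 6.04 FPKM in the Atclb1-1 library, a ratio of 1.90. TPS10 (AT1G60140; chr1:22176934-22181740, minus strand) was at 14.6 FPKM in the wild type library and 27.3 FPKM in the Atclb1-1 library, a ratio of 1.87. The log2 differences of TPS9 and TPS10 were 0.75 and 0.86, and 24.3% and 21.0% of measured loci had a difference at least as high. The 3 members closest in sequence, TPS8, TPS9 and TPS10, thus stood above the median of all measured loci, 1 of them past 2-fold. TPS11 (AT2G18700; chr2:8108898-8112010, plus strand) did not share this, at 31.8 FPKM in the wild type library and 29.2 FPKM in the Atclb1-1 library, a log2 difference of -0.12. TPS8 to TPS11, the genes known to answer to carbon shortage, thus ranged from -0.12 to 1.23.

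**Figure D3:**
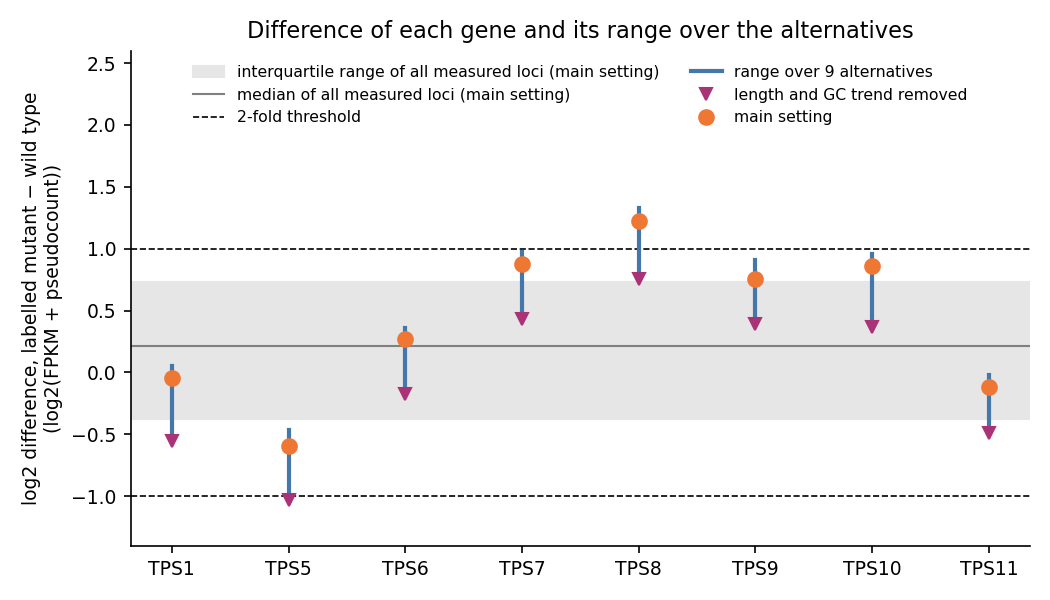
Log2 difference of each gene between the Atclb1-1 library and wild type (points), its range over 9 processing alternatives (lines) and its value with a trend in length and GC content of transcripts removed (triangles), beside the median and interquartile range of all measured loci (-0.38 to 0.73). TPS8 lies past the dashed 2-fold line at 1.23 and falls inside it at 0.76 once the trend is removed, while TPS5 moves from -0.60 to -1.03.

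Long transcripts had a higher median difference than short ones in these libraries. The longest annotated transcripts of the members run from 2945 to 5000 nt, against a median of 1725 nt over measured loci. The 1913 other measured loci with transcripts in that range had a median log2 difference of 0.44, with 16.9% past 2-fold higher and 5.12% past 2-fold lower. The 15823 loci with shorter transcripts had a median of 0.16, with 16.9% higher and 11.6% lower. The median of the 8 synthase genes, 0.51, was near that of loci of like length. It was 0.10 after the trend with length and GC content together was removed, and the part of length alone was not tested.

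The order of the members differed between the libraries. In wild type TPS11 and TPS7 were the most abundant, at 31.8 and 28.9 FPKM, followed by TPS8, TPS5 and TPS10 between 17.9 and 14.6 FPKM, then TPS1, TPS6 and TPS9. The order in the Atclb1-1 library was TPS7, TPS8, TPS11, TPS10, TPS1, TPS5, TPS6 and TPS9. Neighbours such as TPS8 and TPS5 in wild type, or TPS1 and TPS5 in the Atclb1-1 library, lay within 1 FPKM of each other, and without replicates their order cannot be fixed. The 8 genes summed to 131 FPKM in the wild type library and 190 FPKM in the Atclb1-1 library, a ratio of 1.44. TPS8 made up 13.7% of this sum in the wild type library and 22.9% in the Atclb1-1 library, and TPS7 made up 22.0% and 28.4%. TPS11 went from 24.2% to 15.4%, and TPS5 from 13.0% to 5.77%. The share of TPS1 was 9.13% in the wild type library and 6.11% in the Atclb1-1 library, with its own level nearly the same.

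**Figure D4:**
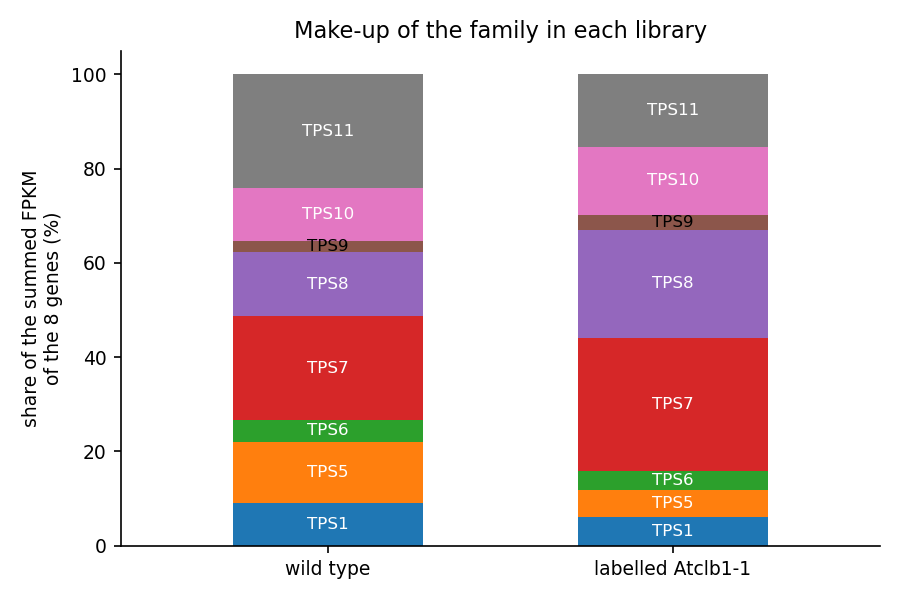
Share of each gene in the summed FPKM of the 8 synthase genes, in percent, for the wild type library and the Atclb1-1 library. TPS7 and TPS8 take 28.4% and 22.9% in the Atclb1-1 library against 22.0% and 13.7% in wild type, and TPS11 and TPS5 take less.

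The 250 bases before the annotated start of 7 of the genes were searched on both strands for sequence elements tied to sugar, bZIP factors or the clock. These were the G-box CACGTG, the bZIP element ACTCAT, the TATCCA box and the evening element AAATATCT, present in 6.49%, 12.3%, 13.6% and 4.79% of 27443 promoter windows of that length. Of these 7 windows, that of TPS5 held the bZIP element and those of TPS10 and TPS11 the TATCCA box. None held the G-box or the evening element, and the windows of TPS1, TPS7, TPS8 and TPS9 held none of the 4 letter strings. The windows of TPS5 and TPS8, the members with the lowest and the highest difference, are given from the TAIR10.1 RefSeq genome, with any element in capitals.
TPS5, chr4:9875922-9876171, plus strand: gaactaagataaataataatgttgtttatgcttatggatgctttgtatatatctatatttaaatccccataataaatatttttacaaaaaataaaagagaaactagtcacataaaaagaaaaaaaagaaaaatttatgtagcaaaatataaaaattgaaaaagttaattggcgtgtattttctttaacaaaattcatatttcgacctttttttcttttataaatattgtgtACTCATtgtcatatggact
TPS8, chr1:26474834-26475083, minus strand: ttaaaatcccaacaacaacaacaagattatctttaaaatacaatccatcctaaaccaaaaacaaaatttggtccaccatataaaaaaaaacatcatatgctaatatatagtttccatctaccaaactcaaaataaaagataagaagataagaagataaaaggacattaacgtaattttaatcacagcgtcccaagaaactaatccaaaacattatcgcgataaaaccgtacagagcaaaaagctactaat
TPS8, the member that differed most, held none of the elements in its window. A match is a run of letters and does not show binding.

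Among the trehalose 6-phosphate phosphatases, which remove the phosphate, 9 of 10 genes were analysed here and 6 lay at 1 FPKM or more in a library. TPPJ was at 7.60 FPKM in the wild type library and 35.9 FPKM in the Atclb1-1 library, 4.72-fold higher. TPPD was at 0.286 and 2.33 FPKM, also past 2-fold on the log2(FPKM + 1) scale, but reached 1 FPKM in the Atclb1-1 library only. TPPE, the most abundant phosphatase gene in wild type, was at 43.0 FPKM there and 20.6 FPKM in the Atclb1-1 library, 2.09-fold lower. TPPF, at 7.23 and 3.44 FPKM, had a plain ratio of 2.101-fold lower, as large as that of TPPE, but missed the threshold with 1 FPKM added to each value. The other genes did not pass the threshold either, with TPPH at 6.23 and 9.43 FPKM and TPPA at 4.20 and 3.40 FPKM. Of all measured loci 17.2% were higher and 10.8% lower, with a median of 0.21. Beside these, the phosphatase list held 2 higher and 1 lower of 6, with a median log2 difference of 0.14. Its summed level was 68.9 FPKM in wild type leaves and 75.3 FPKM in the other library, where TPPJ rather than TPPE was the most abundant. TRE1, the trehalase gene, was at 4.33 FPKM in the wild type library and 6.35 FPKM in the Atclb1-1 library.

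None of the 7 SnRK1 subunit genes differed by 2-fold. KIN11, a catalytic subunit gene, was at 22.8 and 29.5 FPKM, here and below with the wild type value first. KINbeta1, a regulatory subunit gene, had the largest difference of this list, 17.6 and 10.8 FPKM, and the values of SNF4, also regulatory, were 22.6 and 30.7 FPKM and those of KINbeta3 13.5 and 18.2 FPKM. GRIK1, which encodes a kinase that activates SnRK1, was at 15.7 and 18.9 FPKM. Of 9 bZIP factors of groups S1 and C, which act with SnRK1 signalling, 6 were analysed here. Of all measured loci 60.4% lay above 0, with a median of 0.21. All 6 bZIP values lay above 0, the median log2 difference was 0.54, and none differed by 2-fold. The largest was bZIP1 at 5.25 and 9.41 FPKM, followed by bZIP9 at 16.8 and 27.6 FPKM, bZIP44 at 4.69 and 8.004 FPKM and bZIP25 at 36.5 and 48.9 FPKM.

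Of 7 genes for substrate and sucrose supply that reached 1 FPKM, 2 were past 2-fold higher and none past 2-fold lower. Their median was 0.25, while all measured loci had 17.2% higher, 10.8% lower and a median of 0.21. The 2 higher genes of this list encode sucrose phosphate synthases, SPSA2 with 3.01 and 16.0 FPKM and SPSC with 65.8 and 149 FPKM. SPSA1, of the same kind, was at 94.2 and 118 FPKM, and HXK1, a hexokinase gene, at 40.2 and 47.9 FPKM.

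Markers of sugar status did not all point one way. Of 7 sugar-induced markers 6 were past 2-fold higher in the Atclb1-1 library and none was lower, with a median of 3.48. BAM5, a beta-amylase gene, was at 46.4 and 766 FPKM, and GPT2 at 14.5 and 54.8 FPKM. The MYB regulator PAP1 was at 9.15 and 134 FPKM, and the enzyme genes DFR and LDOX at 3.22 and 53.3 FPKM and at 1.26 and 24.2 FPKM. PAP1, CHS, DFR and LDOX belong to the anthocyanin and flavonoid pathway, which was already known to be higher in these libraries when the list was made. Without these 4 genes, a choice made after the values were seen, 2 of 3 were higher and the median was 1.85. Of 17 sugar-starvation markers that reached 1 FPKM, 2 were past 2-fold higher and 3 past 2-fold lower, and the median was -0.10. Among all measured loci 17.2% were higher and 10.8% lower, with a median of 0.21, so the starvation counts are near the background. ASN1, an asparagine synthetase gene, was at 0.550 and 3.90 FPKM, and DIN2, a beta-glucosidase gene, at 0 and 16.2 FPKM. AXP, a dormancy-associated gene, was lower at 500 and 14.1 FPKM, as were BT2 at 7.33 and 0.766 FPKM and DIN10 at 7.33 and 2.78 FPKM. ASN1 and DIN2 reached 1 FPKM in the Atclb1-1 library only, and BT2 in the wild type library only. Beside these lists TPS5, itself known as sugar-induced, was 1.56-fold lower, and of the carbon shortage genes TPS8 to TPS11 only TPS8 passed 2-fold.

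**Figure D5:**
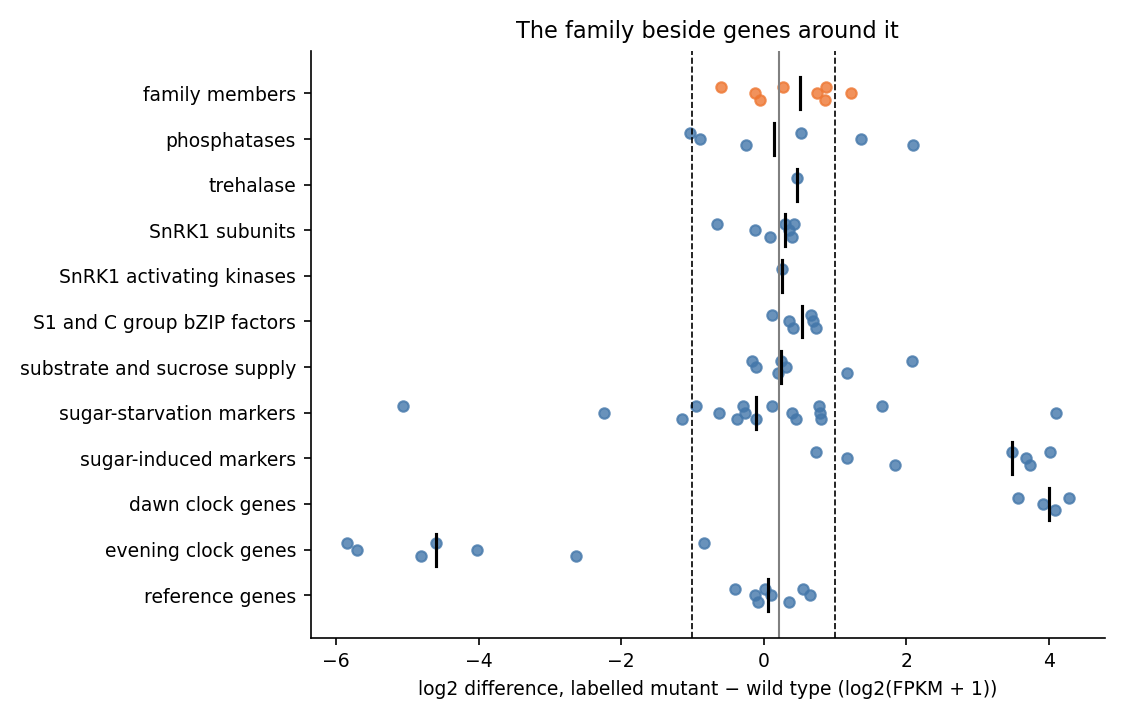
Log2 difference of each measured gene between the Atclb1-1 library and wild type, on the log2(FPKM + 1) scale, for the synthase family and the lists around it, with the list median (black bar), the median of all measured loci (grey line) and the 2-fold thresholds (dashed). The synthases run from -0.60 to 1.23, the sugar-induced markers have a median of 3.48 (1.85 without 4 flavonoid and anthocyanin genes known beforehand to be higher), and the dawn and evening clock genes lie farthest apart.

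TPS1 is known to act in phloem companion cells and guard cells, so markers of those cells are given beside it. None of 4 phloem markers differed by 2-fold, and their summed level was 643 FPKM in the wild type library and 630 FPKM in the Atclb1-1 library. Of 3 guard cell markers 2 were at least 2-fold lower and 1 higher, beside 10.8% lower and 17.2% higher among all measured loci. Their sum was 175 and 71.9 FPKM. GC1 carried that sum, at 144 and 31.8 FPKM, while MYB60 was at 18.0 and 7.71 FPKM and KAT1 was higher, at 12.8 and 32.4 FPKM. In whole leaves, fewer cells of a type and less RNA per cell cannot be told apart, and the part of these markers in the synthase values was not tested.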

How the data were processed

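The authors deposited FPKM, named so in the header, for 1 leaf library of each genotype. TopHat 1.3.2 and Cuffdiff with TAIR10 were used, per the submitters' processing notes; their settings and the annotation release were not given in the sources used here. Columns were matched to samples by title and groups came from the genotype label.

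Differences were log2((mutant FPKM + 1)/(wild type FPKM + 1)) for loci that reached 1 FPKM in either library, counted at 2-fold; the calculation was tested on simulated data. Folds of single genes are plain ratios. No test was made. Reads per gene were not recovered. With 1 fragment taken as the commonest step among low values, members rest on roughly 140 (TPS9) to 1510 (TPS7) fragments in wild type and 310 (TPS9) to 3290 (TPS7) in the other library.

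Lengths, GC content, coordinates and sequences came from the TAIR10.1 RefSeq release alone, since the table gives no coordinates; 1 promoter window is not reported here. Coding sequences were aligned globally with Biopython 1.88 under Python 3.11.15. The rule named all members, the other class I, phosphatase and trehalase genes, AtCLB, the 3 loci nearest to TPS8, and up to 4 genes of largest difference per pathway list. DIN10, CHS and the overlapping genes were named after their values were seen. Clock and reference lists are given by counts. Tissue lists are given by counts, with the leaf and guard cell markers and PYK10 named as well. Members and lists were chosen with earlier results of these data known. Alternatives were other pseudocounts, filters, scalings and thresholds, and a length and GC trend removed by medians in 20 bins of length and 10 of GC in each.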

Additional observations from a re-analysis of the deposited data

How the results depend on the processing

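TPS8 stayed the only member past 2-fold higher under 7 of the 9 alternatives: pseudocounts of 0.1 and 5, the 3 scalings, no filter, and a filter at 5 FPKM. With a 4-fold threshold 0 members were higher, and with the length and GC trend removed 0 were higher and 1, TPS5, was lower. In that last setting 13.2% of all loci were higher and 13.7% lower, so 1 member lower is near the background. TPS7, TPS8, TPS9 and TPS10 lay above 0, and TPS5 and TPS11 below 0, under all 9. TPS1 turned to 0.05 with the same nuclear total, and TPS6 to -0.17 with the trend removed. The median of the members ran from 0.10 with the trend removed to 0.60 with the same nuclear total, and the mean was 0.40. The share of all loci at least 2-fold higher and lower was 9.76% and 5.82% at pseudocount 5, 9.31% and 5.83% without a filter, and 5.29% and 2.64% at 4-fold. Higher loci made up 61.5% of those called, 50.7% after the median log2 ratio was set to 0, a shift of 0.21, and 49.1% with the trend removed. No paired analysis was possible because each genotype has 1 library, so leaving out a replicate was not run either. Lengths are those of the longest TAIR10.1 transcript, which may differ from the authors' annotation.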
